A study of Homo sapiens with 6 samples.

Results

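The BCL2 family genes of Hs766T cells were examined for their response to DDX18 overexpression. The family is represented by the 10 rows of the deposited table, out of 58302 genes, whose gene name is BCL2, BCL2L1, MCL1, BAX, BAK1, BID, BAD, BIK, PMAIP1 or BCL2L11. Hs766T, spelled HS7666T in the sample titles, is an established human pancreatic ductal adenocarcinoma line. RNA-seq was made from 3 libraries of cells that overexpress DDX18 (genotype ex-DDX18) and from 3 libraries of control cells, which the labels name plvx and give the genotype WT. DDX18 is a DEAD-box helicase of the nucleolus, where ribosomal subunits are assembled. No drug treatment or time point is named in the labels, and whether the overexpressing cells are a pool or a single clone is not given in the sources used here. The series describes the libraries of a group as repeats of the sequencing and names no separate cultures, so p-values here reflect library-to-library spread that may be technical.

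BCL2 family proteins decide whether the outer mitochondrial membrane stays intact. Antiapoptotic members (BCL2, BCL2L1, MCL1) hold their relatives in check through a surface groove, and the effectors BAX and BAK1 form the pores through which cytochrome c leaves the mitochondrion. BH3-only members (BID, BAD, BIK, PMAIP1, BCL2L11) share little with the others beyond a short helix, the BH3 domain, which binds that groove or engages the effectors directly. Much of their control lies in the stability, cleavage and phosphorylation of the proteins, which RNA-seq does not measure.

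The coding sequences of all 10 members hold a BH3 core, searched as a leucine codon, 3 codons of any kind, a glycine or serine codon, and an aspartate codon. The glycine form stands once in each of 9 members, and in 13.8% of 19468 protein-coding genes searched. BAD holds the serine form only. BID holds a serine form as well, at codon 71, apart from its glycine form at codon 136. Either form occurs in 26.3% of the genes searched, so a match by itself is common. Below are 48 bases of coding DNA around the core in 6 members, with the 6 core codons in capitals, from GENCODE 29 transcripts. They were chosen to show each class and the variant codon of BAD.
BCL2L1: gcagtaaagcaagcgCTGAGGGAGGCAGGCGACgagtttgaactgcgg
MCL1: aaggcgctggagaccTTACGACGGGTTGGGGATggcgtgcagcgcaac
BAX: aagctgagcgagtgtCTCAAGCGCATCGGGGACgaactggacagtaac
BAD: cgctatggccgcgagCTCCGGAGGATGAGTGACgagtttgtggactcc
PMAIP1: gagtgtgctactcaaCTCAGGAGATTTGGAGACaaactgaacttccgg
BCL2L11: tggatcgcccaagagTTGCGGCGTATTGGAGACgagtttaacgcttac
On GRCh38 these stretches lie within a single coding exon each. They are chr20:31721919-31721966 (BCL2L1, minus strand, exon 2), chr1:150578862-150578909 (MCL1, minus strand, exon 1) and chr19:48955772-48955819 (BAX, plus strand, exon 3). The others are chr11:64271619-64271666 (BAD, minus strand, exon 3), chr18:59902658-59902705 (PMAIP1, plus strand, exon 2) and chr2:111150088-111150135 (BCL2L11, plus strand, exon 4). The RNA counts below are sums over a whole gene, so they do not tell apart splice forms with and without this core.

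Libraries held 15911875 to 16207995 counts over 22132 to 23286 detected genes. DDX18 itself measured 187, 197 and 177 CPM (reads relative to the TMM-scaled library size) in the overexpressing libraries, against 89.4, 82.4 and 98.3 CPM in the controls. That is 2.08-fold with a 95% confidence interval of 1.81 to 2.39 (edgeR adjusted p = 0.00982). The call was lost without DDX18 replicate 2 (adjusted p = 0.0544), without control replicate 2 (0.0643) and with the replicate number as a block (0.153), at log2 fold changes of 1.02, 1.00 and 1.06, beside 1.06 in the main analysis. Of the simple-epithelial and ductal markers, KRT8, KRT18 and KRT7 were at 512 to 2387 CPM, EPCAM at 4.40 to 7.93 CPM, and KRT19, a defining ductal keratin, had counts in 1 library only (0.251 CPM). Among 23 markers of acinar, endocrine, fibroblast, endothelial and immune cells, 13 were at 0 throughout and none of the 6 that could be tested was called. The 5 fibroblast markers together were at 168 to 173 CPM with DDX18 and 162 to 173 CPM in the controls, from COL1A1, PDGFRB and DCN, with COL1A2 at 0. Within that flat sum COL1A1 was at 51.5 to 57.7 CPM with DDX18 and 62.6 to 71.3 CPM in the controls (0.82-fold, adjusted p = 0.814), and PDGFRB averaged 105 ± 2.27 CPM with DDX18 and 91.6 ± 4.15 CPM in the controls (1.15-fold, adjusted p = 0.841), neither with overlapping groups. KRT18 also had groups that did not overlap, at 796 to 897 CPM with DDX18 and 918 to 1284 CPM in the controls (0.82-fold, adjusted p = 0.86). Over all tested genes, 5.83% had non-overlapping groups with DDX18 higher and 5.71% with DDX18 lower.

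None of the 10 BCL2 family genes passed the test between DDX18-overexpressing and control cells. All 10 were counted deeply enough to be tested among 15144 genes, and the smallest adjusted p was 0.87 (BID, edgeR). Over all tested genes 0.0528% were called. With all 6 libraries no member had an unadjusted p under 0.05 either, where 5.69% of all tested genes did, and DESeq2 and limma-voom likewise called 0 members, against 0.279% and 0.0528% of all genes. Fold changes were positive for 6 members and negative for 4, and 49.8% of all tested genes had a positive one. The median log2 fold change was 0.08 in the family, beside 0.00 over all tested genes. When single libraries were left out, the family median ran from 0.01 (without control replicate 3) to 0.10 (without control replicate 1). In such bulk RNA, fewer cells expressing a gene and less of its RNA per cell cannot be told apart. The median size of the log2 fold change was 0.14 in the family and 0.11 over all tested genes.

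**Figure D1:**
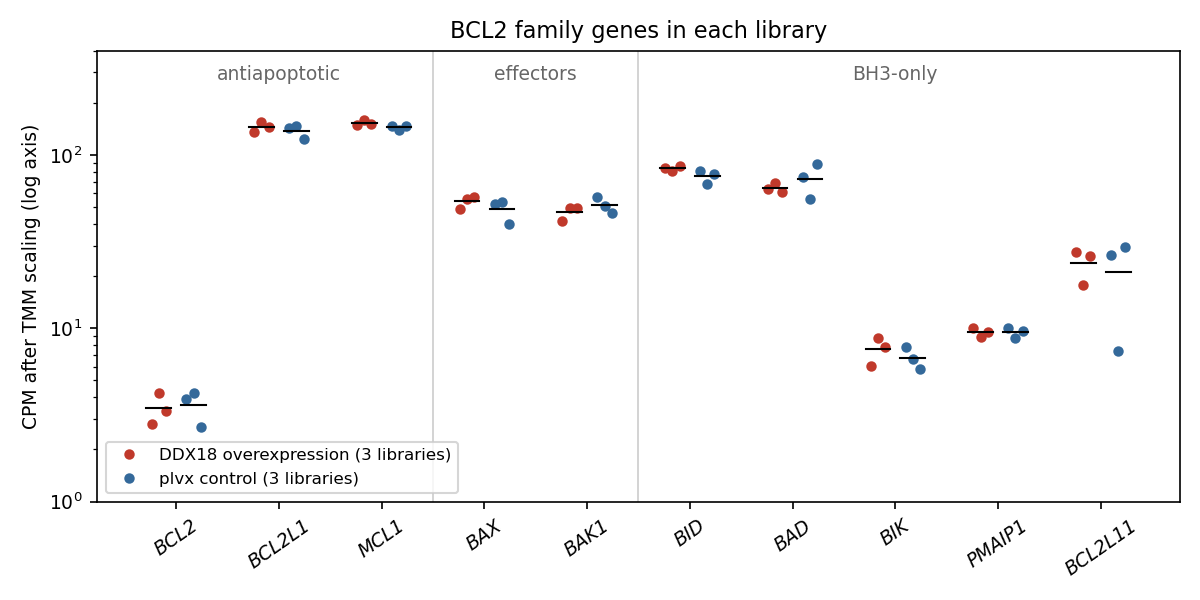
CPM after TMM scaling (log axis) of the 10 BCL2 family genes, with points for single libraries and bars for group means, DDX18 overexpression left of plvx control. The groups overlap for every gene but MCL1, whose libraries lie between 140.1 and 159 CPM, and BCL2L11 has a low point of 7.43 CPM in a control library.

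Among the antiapoptotic genes, BCL2L1 and MCL1 were the abundant ones and BCL2 was scarce. MCL1 (ENSG00000143384, chr1:150574551-150579738, minus strand) encodes a short-lived survival protein. It measured 149, 159 and 152 CPM with DDX18, against 148, 140.1 and 147 CPM in the controls. All 3 overexpressing libraries thus lay above all 3 controls, with the nearest pair of libraries almost level. The difference was 1.06-fold (95% interval 0.95 to 1.17, adjusted p = 0.924). MCL1 was the only member whose groups did not overlap, where 5.83% of all tested genes had non-overlapping groups with DDX18 higher and 5.71% with DDX18 lower.

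BCL2L1 (ENSG00000171552, chr20:31664452-31723989, minus strand) encodes BCL-XL and, by alternative splicing, the proapoptotic BCL-XS. It measured 136, 156 and 146 CPM with DDX18, against 144, 147 and 124 CPM in the controls. The groups overlapped, and the fold was 1.05 (0.91 to 1.22, adjusted p = 0.95). An antisense gene, ABALON, overlaps 1424 exonic bases of BCL2L1, and no source used here gives the strand setting of the counting, so reads of the pair may not be separable. ABALON measured 24.4, 22.5 and 25.6 CPM with DDX18, against 23.1, 19.7 and 12.9 CPM in the controls (1.30-fold, interval 0.95 to 1.79, adjusted p = 0.86). The lowest library of both genes was control replicate 3, and the part of shared reads in this was not tested.

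BCL2 (ENSG00000171791, chr18:63123346-63320128, minus strand), the founding member of the family, measured 2.79, 4.24 and 3.33 CPM with DDX18, against 3.93, 4.24 and 2.71 CPM in the controls. These values rest on 44 to 69 counts per library, so counting noise adds to the spread. The groups overlapped over nearly their whole range (0.95-fold, 0.64 to 1.41, adjusted p = 0.987).

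The effectors BAX and BAK1 were close to each other in CPM and did not pass the test. BAX (ENSG00000087088, chr19:48954815-48961798, plus strand), which moves from the cytosol to mitochondria when activated, measured 48.8, 55.7 and 57.4 CPM with DDX18, against 52.1, 53.9 and 40.0 CPM in the controls. Control replicate 3 was the low library, and the other 5 overlapped (1.11-fold, 0.90 to 1.37, adjusted p = 0.925). BAK1 (ENSG00000030110, chr6:33572547-33580293, minus strand), which resides on the mitochondrial outer membrane, measured 41.7, 49.6 and 49.3 CPM with DDX18, against 57.5, 50.5 and 46.2 CPM in the controls. The estimate was 0.91-fold (0.76 to 1.09, adjusted p = 0.924). A processed pseudogene, BAK1P1, held 1.31 to 2.14 CPM with DDX18 and 1.79 to 2.45 CPM in the controls, so few reads were assigned to that copy.

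Of the BH3-only genes, BID and BAD were the abundant ones. BID (ENSG00000015475, chr22:17734138-17774770, minus strand) encodes the protein that caspase-8 cleaves to link death receptors to mitochondria. It measured 84.3, 81.2 and 86.7 CPM with DDX18, against 81.4, 68.5 and 77.6 CPM in the controls. The highest control reached into the range of the overexpressing libraries (1.11-fold, 0.96 to 1.27, adjusted p = 0.87).

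BAD (ENSG00000002330, chr11:64269830-64284704, minus strand) encodes a sensitizer that survival kinases inactivate by phosphorylation. It measured 63.5, 68.8 and 60.8 CPM with DDX18, against 74.5, 56.0 and 88.9 CPM in the controls. The controls spanned a wider range, from below to above all 3 overexpressing libraries (0.88-fold, 0.68 to 1.14, adjusted p = 0.925). Without control replicate 2, the low control, the log2 fold change was -0.34, against -0.18 with all libraries. BAD then had an unadjusted p of 0.0203 in edgeR (adjusted p = 0.986). Without control replicate 3, the high control, the log2 fold change was -0.02 (edgeR adjusted p = 0.989). GPR137, a coding gene on the other strand, overlaps 404 exonic bases of BAD and measured 28.8, 33.3 and 30.2 CPM with DDX18, against 33.7, 31.9 and 26.4 CPM in the controls.

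PMAIP1 and BIK were low. PMAIP1 (ENSG00000141682, chr18:59899948-59904306, plus strand), known as NOXA, a sensitizer that acts mainly on MCL1, measured 10, 8.86 and 9.55 CPM with DDX18, against 10.1, 8.84 and 9.67 CPM in the controls. The groups coincided (0.99-fold, 0.81 to 1.21, adjusted p = 0.997). BIK (ENSG00000100290, chr22:43110748-43129712, plus strand), a BH3-only protein of the endoplasmic reticulum, measured 6.08, 8.80 and 7.85 CPM with DDX18, against 7.80, 6.69 and 5.79 CPM in the controls (1.12-fold, 0.83 to 1.52, adjusted p = 0.95).

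BCL2L11 varied most. This gene (ENSG00000153094, chr2:111119378-111168447, plus strand) encodes BIM, a potent activator that growth factor signalling through ERK keeps low. It measured 27.4, 17.8 and 26.1 CPM with DDX18, against 26.6, 7.43 and 29.4 CPM in the controls. Control replicate 2 stood far below the others, DDX18 replicate 2 was the next lowest, and the remaining 4 libraries lay close together irrespective of group. Its highest library was 3.95 times its lowest, where the other 9 members ranged from 1.14 to 1.59 times. The fold was 1.13 with a wide interval (0.55 to 2.29, adjusted p = 0.982), and its sign turned without control replicate 2 (log2 fold change -0.24, against 0.17 with all libraries). MIR4435-2HG, a long noncoding RNA gene on the other strand that overlaps 727 exonic bases of BCL2L11, measured 28.0, 38.0 and 18.5 CPM with DDX18, against 31.4, 32.4 and 36.8 CPM in the controls, and so was not low in control replicate 2. That library also had the most detected genes (23286, where the other 5 had 22132 to 22353) and the highest share of mitochondrial counts (3.15%, where the others had 2.44% to 2.86%), and the part of either in its low BCL2L11 was not tested.

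**Figure D2:**
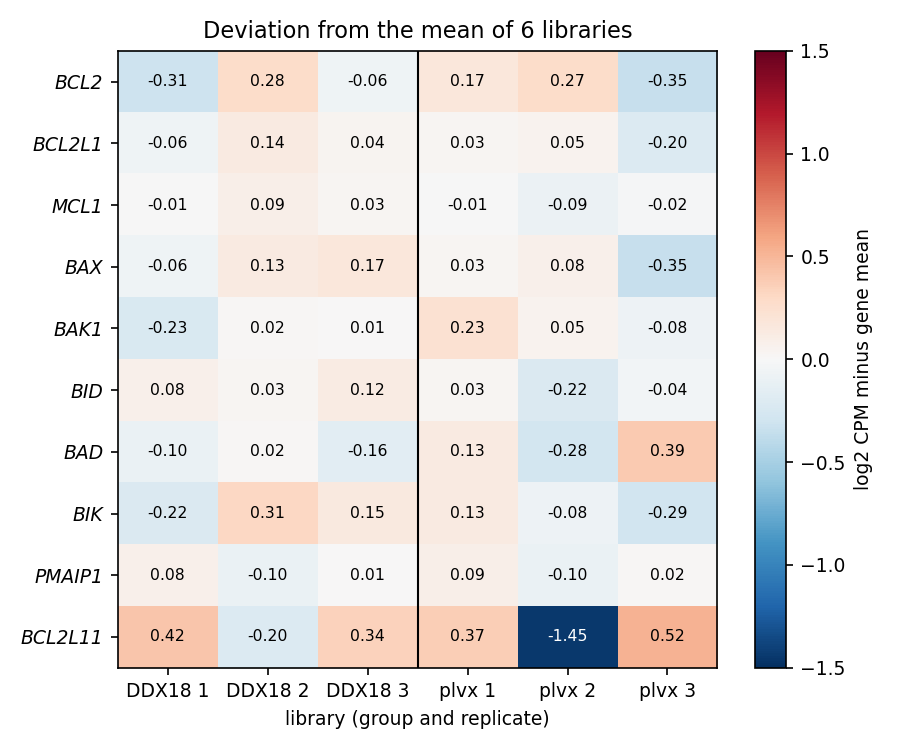
Log2 CPM of each BCL2 family gene minus its mean over the 6 libraries, with DDX18 overexpression libraries left of the line and plvx controls right of it. BCL2L11 in control replicate 2 is the largest deviation (-1.45), and no column group is uniformly high or low.

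Among 11100 genes with a mean of at least 5 CPM, the 3 whose log2 CPM followed that of BCL2L11 most closely over the 6 libraries were RIN3, a guanine nucleotide exchange factor for RAB5 (Pearson r = 0.993), USP31, a deubiquitylating enzyme (0.987), and BHLHE40, a basic helix-loop-helix repressor (0.985). With 6 points dominated by a single low library and so many genes compared, these values are a description. All 3 genes were likewise lowest in control replicate 2, which follows largely from how they were picked. RIN3 measured 16.4, 15.3 and 16.0 CPM with DDX18, against 16.4, 12.5 and 16.6 CPM in the controls. USP31 measured 13.1, 10.7 and 13.4 CPM with DDX18, against 14.4, 7.49 and 14.3 CPM in the controls. Their spans were narrower than that of BCL2L11. None of the 3 was called between the groups (adjusted p 0.96 to 0.993), which adds little for genes picked to follow BCL2L11.

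The confidence intervals bound how large an undetected difference could be, given the spread between these libraries. That spread may be technical, so variation between separate cultures may not be covered. For 9 of the 10 members the 95% interval excluded a 2-fold change in either direction, BCL2L11 being the exception, and for 7 it also excluded a 1.5-fold change. MCL1 was the most tightly bounded, at 0.95-fold to 1.17-fold.

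**Figure D3:**
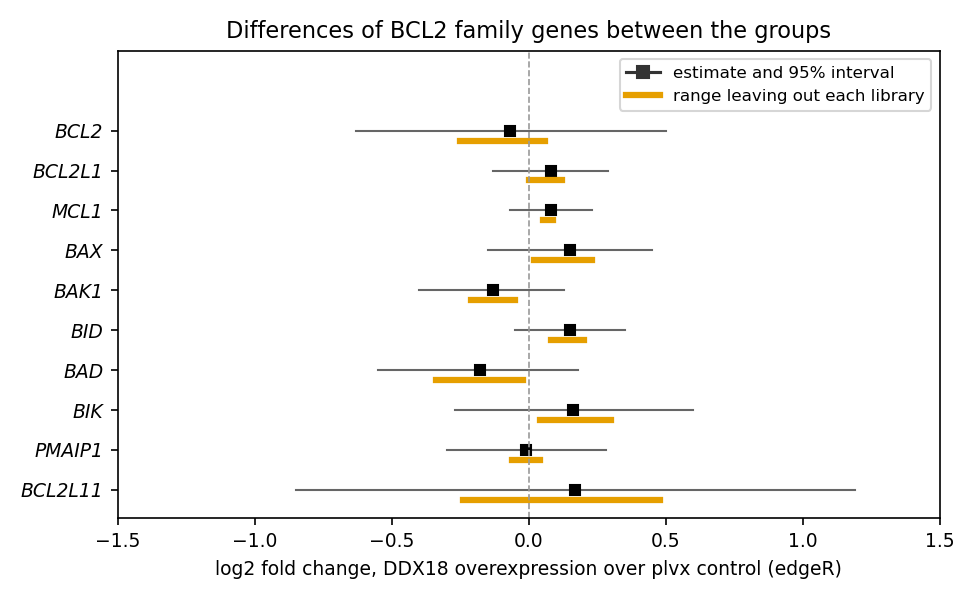
Log2 fold change of each BCL2 family gene, DDX18 overexpression over plvx control. The thin line is the 95% interval derived from the edgeR fit, and the thick line the range when each library is left out in turn. All 10 intervals include 0, and the widest is that of BCL2L11, from -0.85 to 1.19.

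To compare levels between genes, CPM was divided by the merged exon length of each gene in GENCODE 29. On this per-kilobase scale the leading genes were BCL2L1, BAD and MCL1. BCL2L1 was at 44.0 ± 3.04 CPM per kilobase with DDX18 and 41.7 ± 3.83 in the controls, BAD at 37.7 ± 2.40 and 42.8 ± 9.64, and MCL1 at 35.1 ± 1.20 and 33.3 ± 1.05 (SD, n = 3 each). BAK1 (18.8 to 26.0 CPM per kilobase over the 6 libraries), BAX (15.4 to 22.2) and BID (15.4 to 19.5) followed as a second tier. BIK (6.07 to 9.23), PMAIP1 (3.96 to 4.53) and BCL2L11 (1.12 to 4.41) came below, and BCL2 was last at 0.23 to 0.361.

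Some neighbours in this order were not resolved. BCL2L1 and BAD overlapped and each led in some libraries, while MCL1 stood below both within each of the 6. Its range over the libraries, 32.1 to 36.4 CPM per kilobase, overlapped that of BAD (32.8 to 52.0) but not that of BCL2L1 (37.3 to 47.0). BAK1, BAX and BID changed places between libraries, as did PMAIP1 and BCL2L11. Between MCL1 and BAK1, BID and BIK, BIK and PMAIP1, and BCL2L11 and BCL2 the ranges over the 6 libraries did not overlap. The authors' FPKM values give the same order except that BIK stands above BID there (7.97 against 7.45 FPKM with DDX18, and 7.04 against 6.66 FPKM in the controls). The gene length behind these FPKM values was 11319 bases for BID, 2.55 times its merged exon length, and 953 bases for BIK, equal to its merged exon length. In every member it equalled the sum of all distinct annotated exons, overlapping ones included, so FPKM understates genes with many annotated isoforms relative to those with few.

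The make-up of the family was similar in both groups. The antiapoptotic genes together held 41.0% ± 0.431 of the summed per-kilobase level with DDX18 and 39.3% ± 2.77 in the controls, the effectors 21.7% ± 1.14 and 22.0% ± 2.70, and the BH3-only genes 37.4% ± 1.12 and 38.7% ± 5.27 (SD, n = 3 each). BCL2 contributed 0.12% to 0.199% of that level in any library. The per-kilobase level of BCL2L1 was 130.4 to 173 times that of BCL2 with DDX18 and 123 to 162 times in the controls. The BAX to BCL2 ratio, often quoted as an index of apoptotic readiness, was 59.7 to 79.5 with DDX18 and 57.8 to 67.1 in the controls on the same scale. Such shares and ratios depend on the gene length used. In the authors' FPKM, BCL2L1 averaged 20.7 with DDX18 and 19.5 in the controls, and BAX 9.23 and 8.24. BCL2 averaged 0.213 and 0.222 FPKM, so both ratios are smaller on that scale.

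**Figure D4:**
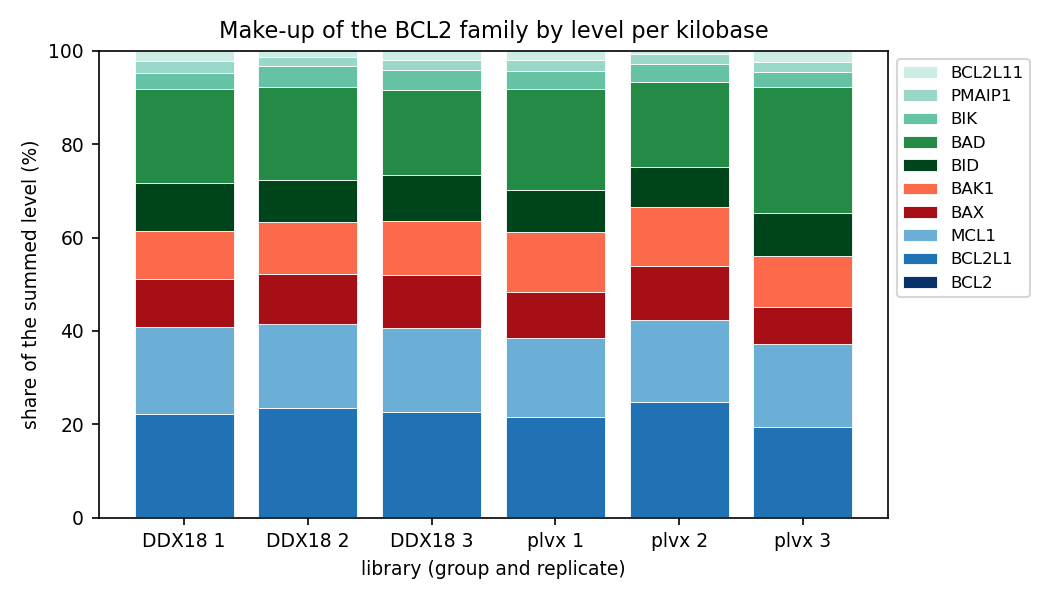
Share of each BCL2 family gene in the summed level of the 10 genes (CPM per kilobase of merged exons, in %), by library, with DDX18 overexpression on the left. BCL2L1, MCL1 and BAD form the largest blocks in every library, BCL2 (0.12% to 0.199%) is barely visible, and BAD varies most among the controls.

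On the per-kilobase scale the ratio of BAX to BAK1 was 0.96 to 1.00 with DDX18 and 0.739 to 0.912 in the controls, without overlap. This pair was singled out after its values were seen. Of the 45 pairs of members, 4 (8.89%) had ratios that did not overlap between the groups, and 3 of these involve BAK1. All 4 are descriptions, with no test. BCL2L1 over BAK1 was 1.98 to 2.17 with DDX18 and 1.67 to 1.94 in the controls, and BAK1 over BIK was 2.43 to 2.95 with DDX18 and 3.18 to 3.44 in the controls. BID over PMAIP1 was 4.22 to 4.61 with DDX18 and 3.90 to 4.04 in the controls. Over the tested genes, 11.5% of single levels had non-overlapping groups. That is a different quantity, and no such share was computed for ratios of other gene pairs. BAX and BAK1 did not pass the test as single genes.

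The rest of the apoptosis machinery was examined in 8 lists of 77 genes, of which 72 could be tested. None was called higher or lower by edgeR, DESeq2 or limma-voom, where these called 0.0528%, 0.279% and 0.0528% of all genes. An unadjusted p under 0.05 was found for 6 of the 72, and for 5.69% of all tested genes. Of the 72 fold changes 35 were positive and 37 negative, with a median log2 fold change of 0.00, the same as over all tested genes.

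Of the other BCL2 homologues and BH3-only genes, 10 of 13 were tested, and BCL2A1, BCL2L10 and BCL2L14 were too low. BCL2L15 had the smallest p of the list and was scarce, at 1.18, 0.998 and 1.51 CPM with DDX18, against 2.90, 2.21 and 2.52 CPM in the controls (0.48-fold, 0.33 to 0.72, adjusted p = 0.671). BCL2L13, a mitochondrial member that also takes part in mitophagy, was at 87.7, 63.8 and 73.0 CPM with DDX18, against 88.7, 92.4 and 88.1 CPM in the controls (0.83-fold, 0.69 to 1.01, adjusted p = 0.86). Neither passed the test. The groups did not overlap for either gene, as for 5.71% of all tested genes with DDX18 lower, and the nearest libraries of BCL2L13 were almost level.

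Among 10 partners of the family at the mitochondrial outer membrane and endoplasmic reticulum, TMBIM6, known as a suppressor of BAX-induced death, had the smallest p. It measured 669, 646 and 622 CPM with DDX18, against 336, 345 and 654 CPM in the controls. Control replicate 3 thus lay with the overexpressing libraries, and the other 2 controls stood near a lower level. With all libraries the fold was 1.45 (0.99 to 2.14, adjusted p = 0.86). Without control replicate 3 the log2 fold change was 0.92 and the gene was called (adjusted p = 0.0161). VDAC1, a channel of the outer membrane, measured 552, 539.5 and 548 CPM with DDX18, against 552, 534 and 627 CPM in the controls.

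Of the inhibitor of apoptosis genes, the 2 with the smallest p were scarce. BIRC7 averaged 2.15 ± 0.519 CPM with DDX18 and 1.11 ± 0.27 CPM in the controls (1.93-fold, 1.20 to 3.10, adjusted p = 0.814). BIRC3, a ubiquitin ligase of NF-κB signalling, averaged 2.39 ± 0.193 CPM with DDX18 and 3.79 ± 0.998 CPM in the controls (0.63-fold, 0.43 to 0.93, adjusted p = 0.841). An unadjusted edgeR p under 0.05 was found for 3 of the 7 genes of that list, and for 5.69% of all tested genes. The third was BIRC2 (log2 fold change -0.42, interval -0.82 to -0.02, adjusted p = 0.86). Of the 7 genes 2 had a fold change above 1 and 5 below 1 (median log2 fold change -0.12).

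Downstream of the mitochondrion, AIFM1, a flavoprotein released during cell death, measured 112, 119.7 and 113 CPM with DDX18, against 105, 104 and 105 CPM in the controls (1.10-fold, adjusted p = 0.86), and HTRA2, a protease that antagonizes the inhibitors, averaged 57.6 ± 2.37 CPM with DDX18 and 60.3 ± 3.27 CPM in the controls. The 7 genes of the apoptosome and of released proteins had a median log2 fold change of 0.00. Of the caspases and their targets, CASP8, the initiator that cleaves BID, averaged 22.0 ± 2.05 CPM with DDX18 and 26.0 ± 0.832 CPM in the controls (0.85-fold, adjusted p = 0.86). CASP10, another initiator, averaged 3.47 ± 0.0436 CPM with DDX18 and 2.58 ± 0.722 CPM in the controls. This list had 5 positive and 4 negative fold changes, with a median of 0.08.

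In the death receptor pathway 10 of 12 genes were tested, 7 with a fold change above 1 and 3 below 1 (median log2 fold change 0.07). The TRAIL receptors TNFRSF10A (24.5 to 26.5 CPM with DDX18 and 20.9 to 25.6 CPM in the controls) and TNFRSF10D (15.2 to 16.8 CPM with DDX18 and 14.4 to 15.2 CPM in the controls) had the smallest p, with adjusted p of 0.91 and 0.933. Among ubiquitin pathway genes that act on MCL1, BTRC averaged 17.3 ± 1.35 CPM with DDX18 and 20.7 ± 1.61 CPM in the controls (0.84-fold, adjusted p = 0.86), and CUL5 averaged 14.7 ± 0.192 CPM with DDX18 and 17.5 ± 2.49 CPM in the controls. The median of these 7 genes was -0.01. Upstream regulators had a median of 0.02, and the smallest p were those of TP73, a transcription factor (4.18 to 6.76 CPM with DDX18 and 2.96 to 5.41 CPM in the controls), and E2F1 (182 to 196 CPM with DDX18 and 170.3 to 188 CPM in the controls), with adjusted p of 0.903 and 0.924.

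**Figure D5:**
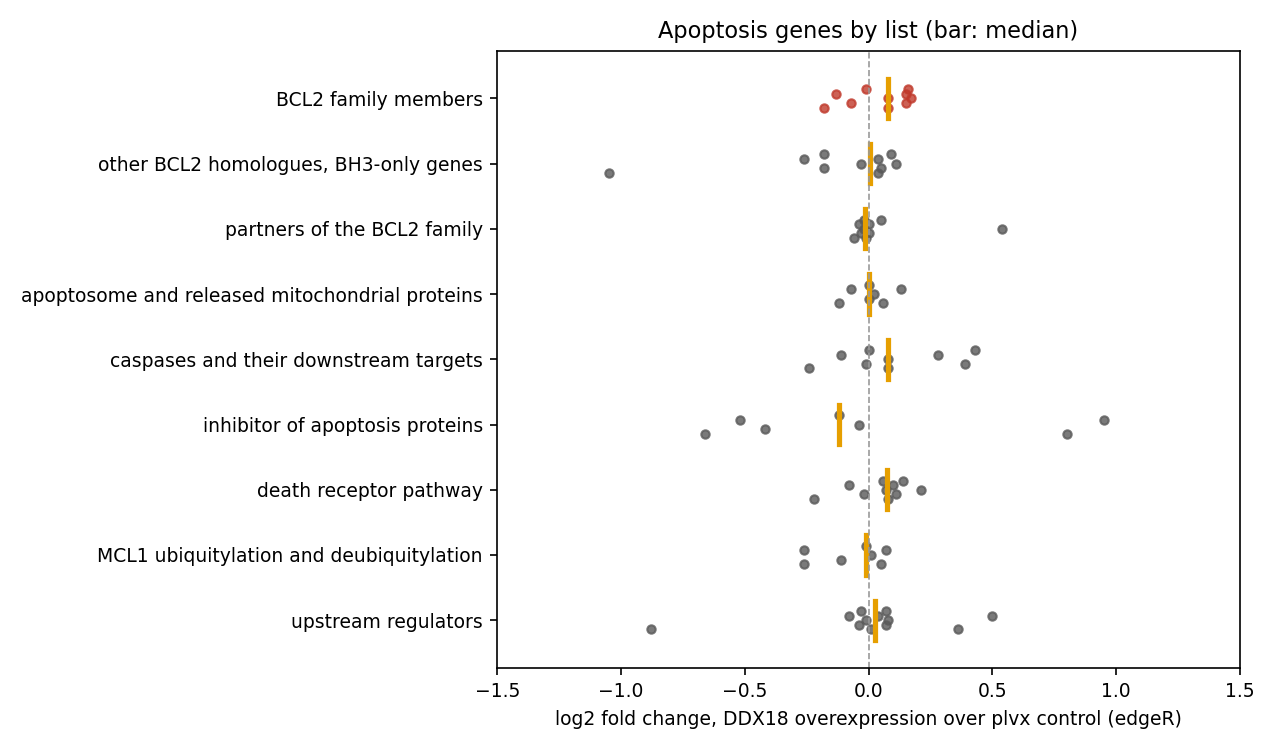
Log2 fold change, DDX18 overexpression over plvx control, of the 10 BCL2 family members (top row) and of 72 tested apoptosis genes in 8 lists, with points for genes and bars for medians. Medians lie between -0.12 and 0.08, and TMBIM6 is the right-hand point of the partners row (0.54). None of the points passed the test.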

How the data were processed

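Counts per gene were used as the authors deposited them, raw whole numbers per the file headers. The FPKM columns, also deposited by the authors, equal counts divided by a gene length and the library total. For 9178 of 9994 well-counted genes (100 counts or more) that length equalled, within 0.1%, the summed distinct exons of GENCODE 29. No aligner, counter or strand setting is given in the sources used here. Builds named in the submitters' processing notes are those of mouse (GRCm38, mm10), but the table holds human identifiers, and 97.6% of those found in GENCODE 29 have its GRCh38 start and end, as all 10 members do.

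edgeR 4.0.16 (R 4.3.3) tested the whole table: filterByExpr, TMM scaling, quasi-likelihood F-test of the groups without covariates, Benjamini-Hochberg adjustment over 15144 genes, threshold 0.05. Adjusted p-values without a named tool come from edgeR. Intervals were derived from the same fit and are approximate, as edgeR does not print them for this test. The standard error was the log2 fold change over the square root of F, multiplied by a t quantile. The coefficient of variation between replicates was 15.9%, and libraries of a group differed by more than counting noise (chi-square per degree of freedom 12.6 to 20.3), so no pair was treated as the same library. This does not show that they came from separate cultures. The edgeR step was also run on simulated counts, drawn with the dispersions fitted to these libraries. Such counts cannot check how well the model fits the data. DESeq2 1.42.0, limma 3.58.1, other scalings and filters, FPKM on the log2 scale, the replicate number as a block and leaving out each library were alternatives. Per-kilobase levels are CPM over merged exon length.

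Members and lists were chosen with earlier results of these data known. All members and DDX18 are named, in each list the genes that passed or the 2 with the smallest p, and the 3 genes most like the most variable member. Overlapping genes and further examples were chosen after their values were seen.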

Additional observations from a re-analysis of the deposited data

How the results depend on the processing

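The count of BCL2 family genes called was 0 in all 16 alternatives, and the lowest adjusted p of any member in any of them was 0.655 (BID, without control replicate 1). Over 159 values of a member under an alternative, 150 kept the sign of the log2 fold change and 9, in 4 members that were never called, changed it. BCL2 was at 0.06 without DDX18 replicate 1 and without control replicate 2 (leave-one-out range -0.25 to 0.06), BCL2L1 at -0.002 without control replicate 3 (to 0.12), and BCL2L11 at -0.24 without control replicate 2 (to 0.48). PMAIP1 was at 0.01 without scaling, 0.003 on log2(FPKM + 1), 0.004 on log2(FPKM + 0.1), and -0.06 to 0.04 when single libraries were left out. BCL2 has no value under the filter of 5 CPM in 3 libraries. The cause of these sign changes was not tested. The count of all genes called, 8 in the main analysis, was 4 with no expression filter, 39 with DESeq2 and 3 to 14 when single libraries were left out (3 without control replicate 2, 5 without DDX18 replicate 2 or 3, 14 without control replicate 1). Other apoptosis genes called numbered 0 to 1 when single libraries were left out, the 1 being TMBIM6 without control replicate 3. With the replicate block the count was 1 over all genes and 0 in the family, and DDX18 had a log2 fold change of 1.06 (adjusted p = 0.153). Same-numbered libraries did not deviate together (correlations -0.043, 0.019 and -0.087, with 2 of 6 libraries closest to their own number), so the numbers were not taken as pairs. Depth limits BCL2 most, with 44 to 69 counts per library.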

Other observations

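Several apoptosis regulators varied widely between libraries in ways that followed the groups only in part or not at all. They were chosen after their values were seen. CASP2, a caspase of the response to DNA damage, measured 40.9, 39.6 and 41.8 CPM with DDX18, against 22.2, 22.9 and 48.0 CPM in the controls. Only control replicate 3 thus lay with the overexpressing libraries, as it did for TMBIM6. When single libraries were left out, the log2 fold change of CASP2 ran from 0.20 to 0.85, and its lowest edgeR adjusted p was 0.0714. MDM4 measured 3.72, 3.24 and 29.6 CPM with DDX18, against 26.9, 34.6 and 5.85 CPM in the controls. XIAP, the inhibitor of executioner caspases, measured 29.6, 6.99 and 7.48 CPM with DDX18, against 10.3, 5.59 and 9.36 CPM in the controls, and thus rested on DDX18 replicate 1. BMF, a BH3-only gene, ran from 0.25 to 2.98 CPM with DDX18 and from 0.387 to 2.09 CPM in the controls. Its values rest on only 4 to 48 counts per library, so counting noise adds to the spread. None of these 4 genes was called with all 6 libraries (adjusted p 0.898 to 0.994).

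BBC3, which encodes the BH3-only protein PUMA, was by contrast even across the libraries, at 8.18, 10.9 and 8.42 CPM with DDX18, against 10.2, 9.09 and 7.39 CPM in the controls (1.03-fold, 0.78 to 1.37, adjusted p = 0.99). BCL2L2, an antiapoptotic homologue, measured 24.4, 26.5 and 18.4 CPM with DDX18, against 26.7, 26.8 and 25.1 CPM in the controls (0.88-fold, 0.70 to 1.10, adjusted p = 0.91).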
